A study of Mus musculus with 10 samples.

Results

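Ccl3, Ccl4, Ccl12, Ccl19 and Cxcr2 are 5 genes of the chemokine system, 4 ligands and 1 receptor, and their messenger RNA was followed in the prefrontal cortex of mice with collagen-induced arthritis. The members were chosen by gene symbol in the annotation of the array. Each had 1 probe, so the group is 5 probes of the 9078 listed on the array, or 5 of its 8726 genes. All 5 entered the fit, which took probes with a ratio in each of the 3 replicates, 4125 of the 9078.

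The mice were male DBA/1, an inbred strain that develops arthritis when immunised with type II collagen, and were 8 weeks old. Control mice received 200 µl of Complete Freund's adjuvant, an oil with mycobacteria that itself stimulates immunity. Arthritic mice received that adjuvant at 100 µl, mixed with 100 µl of type II collagen. LPS, a bacterial outer membrane component, was given to both arms at day 24, so the control is an immune-stimulated animal and not a naive one. Collagen and adjuvant volume differ together between the arms. The label for the time of sacrifice carries the number 31, which can be read as a day or an hour. The interval between LPS and sampling is therefore not settled. The labels do not say how many mice stand behind a sample or whether RNA was pooled. Every array carried 1 collagen and 1 control extract in 2 colours. The 10 arrays formed 5 dye-swap pairs, called pairs 1 to 5 here, which the title numbers group into 3 replicates: pairs 1 and 4, pairs 2 and 5, and pair 3 alone. Whether replicates are separate animals is not said, so the p-values may reflect technical spread alone.

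Chemokines are small secreted proteins that bind G protein-coupled receptors on leukocytes and draw them along a gradient. In the brain their genes are switched on in microglia, macrophages and astrocytes by LPS and inflammatory cytokines, largely through the transcription factor NF-kB. Ccl3 and Ccl4 encode the macrophage inflammatory proteins MIP-1α and MIP-1β, which attract monocytes and T cells, and Ccl3 binds Ccr1. Ccl12 encodes MCP-5, a mouse ligand of Ccr2 that attracts monocytes. Ccl19 guides T cells and mature dendritic cells through Ccr7. Cxcr2, the receptor for Cxcl1, Cxcl2 and related chemokines, brings neutrophils out of the blood.

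The 250 bases before the transcription start are printed for the 3 members whose pair values were all below 0, a choice made after those values were seen. They show the stretch in which an NF-kB site or a TATA box would be looked for, since both arms had LPS, and nothing on these arrays measured a promoter. The sequences are from RefSeq on build GRCm38.p6, 5′ to 3′ on the strand of the gene, and 4 of the 5 members were matched by symbol, Ccl4 being the other. Ccl3 lies at chr11:83649379-83649628 on the minus strand, Ccl12 at chr11:82101595-82101844 on the plus strand, and Cxcr2 at chr1:74153744-74153993 on the plus strand. Capitals mark a match, on either strand, to a general NF-kB pattern (GGG, any 5 bases, then CC) or to TATAAA.
Ccl3: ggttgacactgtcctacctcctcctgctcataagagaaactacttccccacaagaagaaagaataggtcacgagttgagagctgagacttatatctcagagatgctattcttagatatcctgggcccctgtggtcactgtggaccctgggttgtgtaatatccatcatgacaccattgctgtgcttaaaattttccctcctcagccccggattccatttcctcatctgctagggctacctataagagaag
Ccl12: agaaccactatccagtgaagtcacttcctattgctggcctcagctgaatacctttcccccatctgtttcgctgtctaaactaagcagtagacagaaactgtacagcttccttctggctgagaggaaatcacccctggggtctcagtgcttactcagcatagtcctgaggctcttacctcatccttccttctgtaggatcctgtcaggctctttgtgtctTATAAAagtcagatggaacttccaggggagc
Cxcr2: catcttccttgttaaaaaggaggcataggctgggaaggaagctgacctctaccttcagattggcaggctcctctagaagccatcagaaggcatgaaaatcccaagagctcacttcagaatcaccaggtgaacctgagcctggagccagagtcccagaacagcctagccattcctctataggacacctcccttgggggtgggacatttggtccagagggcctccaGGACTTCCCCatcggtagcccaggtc
The Cxcr2 window held 1 match to the NF-kB pattern, which began 26 bases before the start. The Ccl12 window held 1 TATAAA, which began 31 bases before the start. No match to either pattern was found in the Ccl3 window. The Ccl19 window, not printed here, held 1 match to the NF-kB pattern, which began 250 bases before the start, and 0 TATAAA. Of 32851 promoter windows of this length, 45.8% held the NF-kB pattern and 12.4% held TATAAA, and the patterns share no letters in these windows. A match is a description of the letters and not a site.

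Ratios are given as log2 of collagen over control. The files name the channels A and B and do not say which dye each holds. Cy3 was assigned to channel A and Cy5 to channel B from the order of the labels, so directions are likely rather than settled, and the other assignment would reverse every sign and keep every size. Both channels gave a value on 45.2% to 85.9% of the listed probes of an array. All 11 neuron markers with a probe were measured in all replicates, as were 5 of 10 microglia and macrophage markers and 2 of 8 neutrophil markers, 1 of the latter being Cxcr2 itself. The number of arrays limits the precision. All mice are labelled male, yet Xist, the RNA that coats the inactive X chromosome of female cells, read higher in collagen samples. Its 2 probes were higher on 7 of 9 arrays (-0.20 to 2.15, fitted ratio 1.09, limma adjusted p = 0.642) and on 6 of 6 arrays (1.71 to 6.64). Its part in the ratios of the 5 members was not tested.

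Detection differed between the 5 probes. Each array had 3 readings of rising intensity, and a channel counts as detected where at least 1 reading carried a flag that was kept and an intensity above 0. Ccl4 and Cxcr2 were detected in both channels on 10 of 10 arrays, and Ccl3, Ccl12 and Ccl19 on 9 of 10. Over all listed probes, 20.3% were detected in both channels on all 10 arrays and the median was 6 arrays. Channel A was detected on all 10 arrays for each of the 5 members, so every missing value was in channel B. That split ran across the array, where 97.9% of values were detected in channel A and 65.6% in channel B, against 81.1% in collagen and 82.5% in control samples. The missing array was the one with collagen on Cy5 in pair 4 for Ccl3, the one with collagen on Cy3 in pair 4 for Ccl12, and the one with collagen on Cy3 in pair 1 for Ccl19.

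A stricter rule asked for an intensity of at least the local background in both channels. The intensity already had that background taken off, so a kept value smaller than the background is still signal above it. Ccl4 met it on 8 arrays, Cxcr2 on 7, Ccl3 on 5, Ccl12 on 3 and Ccl19 on 1. Of all listed probes, 10% met it on 8 or more arrays, 19.1% on 7 or more, 31.8% on 5 or more, 54.1% on 3 or more and 77.2% on 1 or more. By that measure Ccl4 and Cxcr2 were among the better measured probes and Ccl19 among the weaker ones. In channel B the Ccl19 probe was kept in 17 of 30 readings and reached the local background in 2 of them.

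The collagen and control samples overlapped in signal for each gene. Signal here is the intensity left after background was taken off, divided by the local background. These ranges pool arrays and channels without normalisation or pairing, so their overlap does not measure the difference within an array. At the second reading Ccl3 had 0.636 to 4.53 times the local background in collagen samples (median 1.05, 9 arrays) and 0.376 to 3.13 in control samples (median 1.02, 10 arrays). For Ccl4 the collagen samples spanned 1.10 to 4.71 (median 1.43, 9 arrays) and the control samples 0.470 to 9.82 (median 1.48, 10 arrays). Both genes had overlapping groups with nearly equal medians. Cxcr2 ran from 0.965 to 3.00 in collagen samples (median 1.45, 9 arrays) and from 0.886 to 2.91 in control samples (median 1.41, 10 arrays). Ccl19 stayed between 0.327 and 1.02 in collagen samples (median 0.891, 7 arrays) and between 0.508 and 1.42 in control samples (median 0.767, 8 arrays). Here too the groups overlapped. Ccl12 spanned 0.428 to 7.51 in collagen samples (median 1.03, 9 arrays) and 0.682 to 3.28 in control samples (median 1.75, 9 arrays). Both the lowest and the highest value were collagen values of pair 3, in channel A of one array and channel B of the other. On the array with 7.51 the control value was 2.46, and the ratio after normalisation was -0.10.

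**Figure D1:**
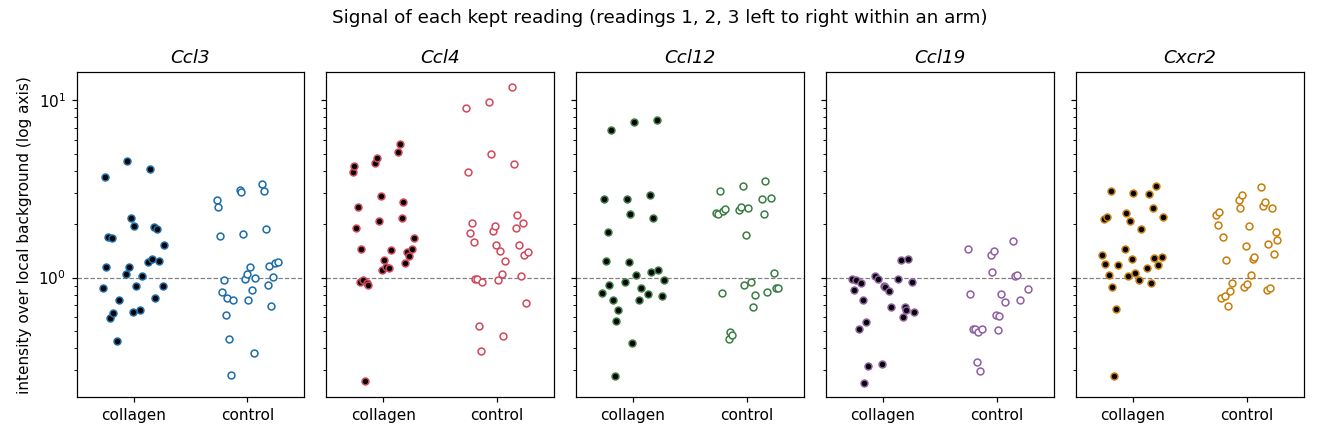
Intensity of each kept reading over its local background (log axis) in collagen samples (filled) and control samples (open), 1 point per array and reading, with readings 1, 2 and 3 from left to right in each group. The intensity had the background taken off, and the dashed line marks where what was left equals the local background. The groups overlap for every gene. The highest Ccl12 points, 6.75 to 7.73, are the 3 readings of the collagen channel of 1 array, with collagen on Cy5 in pair 3.

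None of the 5 transcripts passed the test between arthritic and control cortex, and the fitted values all lay below 0. The log2 ratio was -0.30 for Ccl12, -0.21 for Cxcr2, -0.10 for Ccl4, -0.05 for Ccl3 and -0.02 for Ccl19, or 0.810, 0.865, 0.930, 0.963 and 0.987 as a fold. limma called 0 of the 5 at an adjusted p under 0.05, and 0% of the 4125 fitted probes. At an unadjusted p under 0.05 it gave 0 of the 5 members and 6.50% of all fitted probes (4.12% lower and 2.38% higher). Values below 0 were common, with 54.5% of all fitted probes lower and a median of -0.02. In tissue RNA, fewer cells of a type and less RNA per cell cannot be told apart.

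Ccl12, the monocyte attractant, had the lowest ratio of the 5, at -0.30 (SE 0.14, 95% interval -0.65 to 0.04, n = 3 replicates, limma adjusted p = 0.642). The 4 measured pairs read -0.08, -0.24, -0.69 and -0.05 for pairs 1, 2, 3 and 5. All 4 were lower, as in 62 of the 721 fitted probes with 4 measured pairs, or 8.60%. With print-tip loess the ratio was -0.29 and 3 of the 4 pairs were lower, pair 5 reading 0.10. The size came mostly from pair 3, since the replicates read -0.08, -0.15 and -0.69 and the ratio was -0.11 without replicate 3. Within pair 3 the array with collagen on Cy5 read -0.10 and the one with collagen on Cy3 read -1.28. On that second array the probe was kept in readings 1 and 2. With the background taken off, the collagen intensity was 0.910 and 0.428 times the local background there. The control intensity was 2.39 and 1.75 times. The other arrays with collagen on Cy3 read -0.29, -0.16 and -0.18. The arrays with collagen on Cy5 lay on both sides of 0, at 0.13, -0.33, -0.10, -0.12 and 0.08 for pairs 1 to 5.

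Cxcr2, the neutrophil receptor, had the next lowest ratio, at -0.21 (SE 0.10, 95% interval -0.45 to 0.03, n = 3 replicates, limma adjusted p = 0.642). Pairs 1 to 5 read -0.23, -0.40, -0.04, -0.31 and -0.24. It was lower in 5 of 5 pairs and on 9 of 10 arrays, and the array above 0, with collagen on Cy5 in pair 3, read 0.23. Among the 1845 fitted probes with 5 measured pairs, 110 were lower in all 5, or 5.96%. Its place on the array moved with that value. The probe was printed in grid row 2 of 12, where the median of all fitted probes was -0.13 and 78.3% were lower, and 13.9% of the 173 fitted probes of that row with 5 measured pairs were lower in all 5. With print-tip loess, which fits each printed grid by itself, the row's median was -0.02 and the Cxcr2 ratio -0.06, with 4 of 5 pairs lower. The authors' deposited table gave a mean of 0.00223 on its own log scale (base not given in the sources used here). The ratio was -0.22 in pairs 1 to 3 and -0.28 in pairs 4 and 5, sets of arrays whose intensities rose by different factors between readings. What share of the Cxcr2 value goes with the place on the array was not tested.

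**Figure D2:**
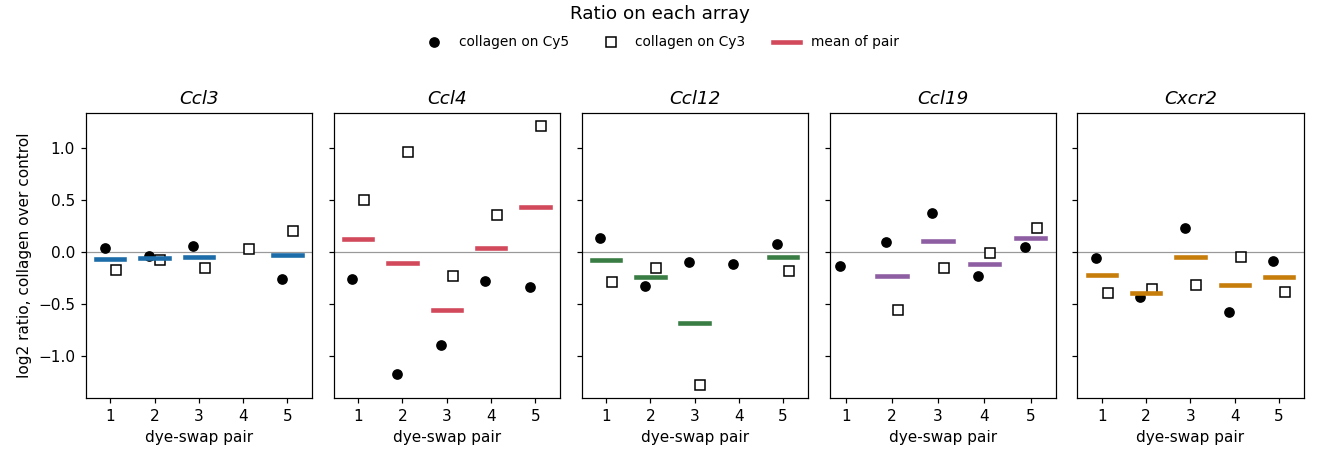
Log2 ratio of collagen over control on each array, by dye-swap pair, with collagen on Cy5 (filled circles) or on Cy3 (open squares), and the mean of each complete pair as a coloured bar. Cxcr2 bars lie below 0 in all 5 pairs, 1 Ccl12 array stands at -1.28, and the Ccl4 arrays part by dye.

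Ccl3, the first of the macrophage inflammatory proteins, had the smallest standard error of the 5 and a ratio near 0, at -0.05 (SE 0.09, 95% interval -0.27 to 0.16, n = 3 replicates, limma adjusted p = 0.827). Pairs 1, 2, 3 and 5 read -0.07, -0.06, -0.05 and -0.03. These 4 values span less than any other member's, although single arrays ran from -0.26 to 0.20, with 5 of 9 below 0. The Ccl3 probe also stood in grid row 2, where 28.0% of the 82 fitted probes with 4 measured pairs were lower in every pair. Its ratio lay above the median of that row by 0.07, and with print-tip loess it was -0.04, with 3 of 4 pairs lower.

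Ccl4, the other macrophage inflammatory protein, had a ratio that differed in sign between pairs, at -0.10 (SE 0.16, 95% interval -0.49 to 0.28, n = 3 replicates, limma adjusted p = 0.813). Pairs 1 to 5 read 0.12, -0.11, -0.56, 0.04 and 0.44. Thus 2 pairs were lower and 3 higher, and the ratio was 0.12 without replicate 3. The replicates read 0.08, 0.17 and -0.56, and the values were -0.18 in pairs 1 to 3 and 0.24 in pairs 4 and 5.

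Behind those pair means the Ccl4 arrays parted by dye. With collagen on Cy5, pairs 1 to 5 read -0.26, -1.18, -0.89, -0.28 and -0.33. With collagen on Cy3 they read 0.50, 0.96, -0.23, 0.36 and 1.21. All 5 arrays of the first orientation were lower and 4 of the 5 of the second were higher, and the lowest of the second, -0.23, stood just above the highest of the first, -0.26. Channel B was thus the dimmer one after normalisation, whichever sample it held, on 9 of 10 arrays and in 5 of 5 pairs. Among the fitted probes with 5 measured pairs, 10.9% were lower in channel B in all 5. Channel B over channel A was -0.53 for Ccl4 (SE 0.15, n = 3 replicates), a comparison added after the data were seen. It did not pass limma's test (adjusted p = 0.140), which called 1.79% of all fitted probes, nearly all of them lower in channel B (72 of 74). At an unadjusted p under 0.05 Ccl4 was the 1 member to pass, and 20.4% of all fitted probes did. With the 5 pairs as units the value was -0.57 and passed (limma adjusted p = 0.0242), as did 8.94% of the 1845 probes in that fit. A dye-swap mean removes a dye effect that is equal on both arrays of a pair, and the Ccl4 pair values still ran from -0.56 to 0.44.

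The other members parted less by dye in this fit. Ccl12 came nearest, at -0.07 with collagen on Cy5 alone and -0.58 with collagen on Cy3 alone. Channel B over channel A was 0.28 for Ccl12 (SE 0.14), 0.09 for Cxcr2 (SE 0.12), 0.09 for Ccl19 (SE 0.12) and 0.04 for Ccl3 (SE 0.12), with limma adjusted p from 0.314 to 0.889. The largest value among the measured chemokine genes was that of Ccr3, an eosinophil receptor for eotaxins, at -1.96 (limma adjusted p = 0.00333), while its collagen over control ratio was -0.06. Ccr3 thus read lower in channel B with a collagen ratio near 0.

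**Figure D3:**
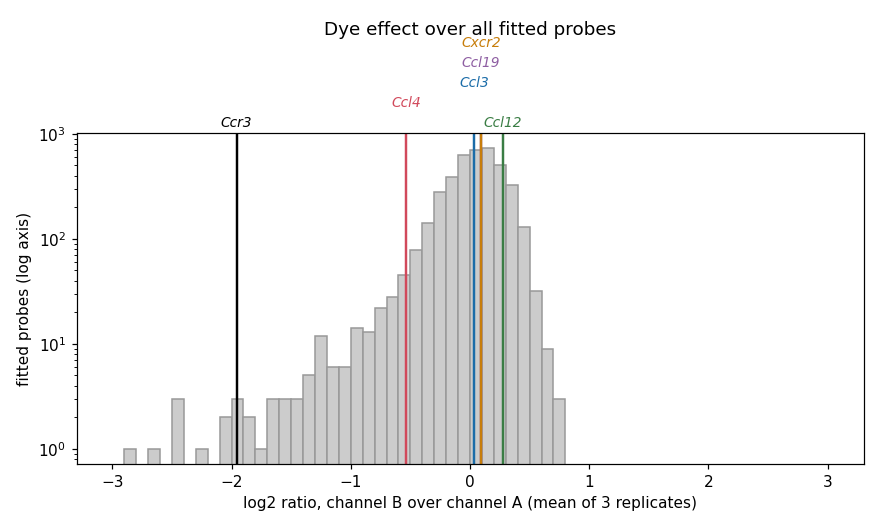
Histogram of the log2 ratio of channel B over channel A for the 4125 fitted probes (log axis for the number of probes), with lines at the 5 members and at Ccr3. Ccl4 at -0.53 and Ccr3 at -1.96 stand to the left of the bulk, and the other members lie between 0.04 and 0.28.

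Ccl19, the Ccr7 ligand, had the ratio nearest to 0 with global loess, at -0.02 (SE 0.10, 95% interval -0.25 to 0.22, n = 3 replicates, limma adjusted p = 0.951). Pairs 2 to 5 read -0.23, 0.11, -0.12 and 0.14, so 2 were lower and 2 higher. With print-tip loess the ratio was -0.10, with 3 of 4 pairs lower, which was farther from 0 than Ccl3 and Cxcr2 in that setting. Single arrays ran from -0.56 to 0.37, with 5 of 9 below 0. Since the signal reached the local background in both channels on 1 array, these values rest on intensities near the lower end of the scale. Its receptor Ccr7 had a ratio on 6 arrays and in 2 pairs and was not fitted.

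**Figure D4:**
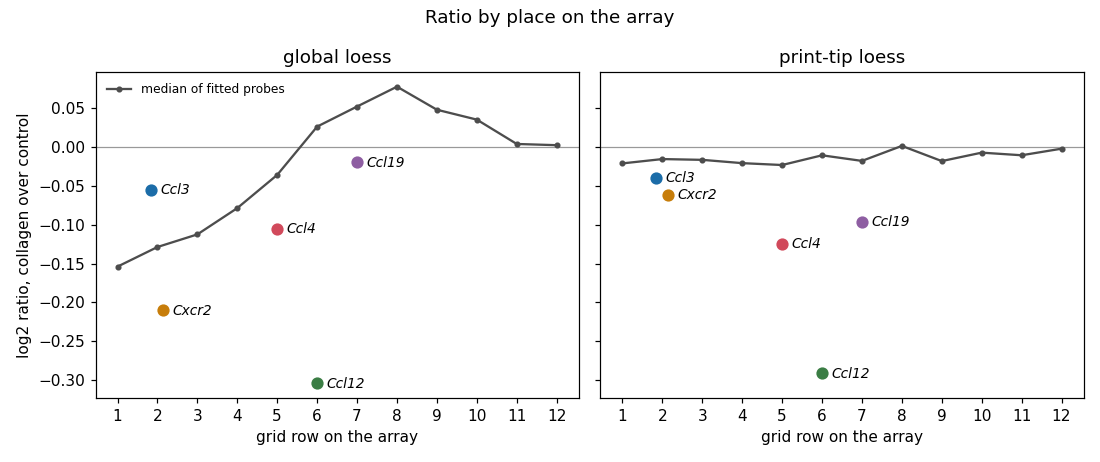
Median log2 ratio of the fitted probes by grid row of the array (line) and the 5 members (points), after global loess (left) and after print-tip loess (right). With global loess the row medians run from -0.15 in row 1 to 0.08 in row 8, and Ccl3 and Cxcr2 share row 2. With print-tip loess all row medians lie between -0.02 and 0.00 and Cxcr2 stands at -0.06.

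Differences between the members' ratios were not tested, and each 95% interval held the other 4 ratios, except that the Ccl3 and Ccl19 intervals left out Ccl12. Across arrays the members did not move as a block. Pearson's r between their ratios ranged from -0.35 (Ccl4 and Ccl19, 9 arrays) to 0.49 (Ccl19 and Cxcr2, 9 arrays), as a description over arrays that share extracts within a pair and dyes between pairs. The probes with the most similar ratios over arrays were Rmnd1 for Ccl4 (r = 0.95, 10 arrays), Ccnh for Ccl12 (0.95, 9 arrays), Avl9 for Ccl3 (0.90, 9 arrays), Hmox2 for Cxcr2 (0.87, 10 arrays) and Clic4 for Ccl19 (0.86, 9 arrays). Next came Phf1 and Entpd1 for Ccl4, Ppp1ca and Rab5if for Ccl12, Lrrn1 and Pip5k1a for Ccl3, Acp6 and Lynx1 for Cxcr2, and Txndc11 and Chad for Ccl19, with r from 0.82 to 0.94. These are the best of 1842 to 2242 probes each. The ratio of an array holds any dye effect with a sign that turns with the orientation, and Rmnd1 read -0.58 in channel B over channel A, close to Ccl4. Over pair means r with Ccl4 was 0.90 for Rmnd1 and 0.97 for Phf1. Among all the probes named here it ran from 0.36 (Pip5k1a with Ccl3) to 0.98 (Ccnh with Ccl12), over 4 or 5 pairs. The part of the dye in these likenesses was not tested.

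No ligand of the wider family passed either. Of 24 CC chemokine ligands 14 had a probe and 7 were fitted, 5 lower and 2 higher, 0 called, with a median of -0.05 against -0.02 over all fitted probes. The 4 member ligands are among the 5 lower. The fitted ligands beside the members were Ccl1, a ligand of Ccr8, at -0.09 (SE 0.09), Ccl9 at 0.02 (SE 0.13) and the skin chemokine Ccl27a at 0.06 (SE 0.09). With print-tip loess Ccl1 read 0.02, Ccl9 -0.02 and Ccl27a -0.04, so each changed sign, and 6 of the 7 were lower. Ccl2, the best known Ccr2 ligand, had a ratio on 7 arrays and in 2 pairs and was not fitted. Of 17 CXC, CX3C and XC ligands 13 had a probe and 1 was fitted, the lymphocyte attractant Xcl1, at 0.02 (SE 0.10, and -0.04 with print-tip loess). Cxcl1 and Cxcl2, which bind Cxcr2, had a ratio on 3 and 4 arrays.

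Among 24 chemokine receptors 13 had a probe and 6 were fitted, 5 lower and 1 higher, 0 called, with a median of -0.20. The lowest was Ccr6, the Ccl20 receptor, at -0.46 (SE 0.28, 3 pairs), followed by Cxcr2 and by Ccr10, the receptor of Ccl27a, at -0.20 (SE 0.14). Ccr1l1 read -0.19 (SE 0.13), Ccr3 -0.06 (SE 0.12) and Ccr8 0.01 (SE 0.11). All 6 receptor probes were in grid rows 2 to 4, where the row medians ran from -0.13 to -0.08. With print-tip loess the receptor median was -0.07, with 6 of 6 lower, and Ccr6 read -0.29 and Ccr10 -0.04. Ccr1, which binds Ccl3, had a ratio on 3 arrays and was not fitted.

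Genes that carry the signal from the receptors were divided, with 4 of 9 fitted higher and 5 lower, 0 called, and a median of -0.07 (0.02 with print-tip loess). Those with the smallest p were the phospholipase Plcb1 at -0.23 (SE 0.10), the inhibitory G protein subunit Gnai3 at 0.20 (SE 0.09) and the Rac activator Tiam1 at 0.18 (SE 0.13). With print-tip loess they read -0.09, 0.06 and -0.03, so Tiam1 changed sign. Of 24 probes for inducers of chemokine genes 4 were fitted, 3 higher and 1 lower, 0 called, with a median of 0.06. The NF-kB inhibitor gene Nfkbia, itself an NF-kB target, read 0.21 (SE 0.10), Il1b 0.11 (SE 0.09) and the NF-kB subunit gene Relb -0.04 (SE 0.09). With print-tip loess these read 0.14, 0.02 and -0.04, and the inducer median was 0.03. Tlr4, the LPS receptor, Il6 and Ly96 had a ratio on 3 arrays each and were not fitted.

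Markers of the cells that make or receive these chemokines are given next, and their part in the member ratios was not tested. Of the microglia and macrophage markers 4 of 5 were lower, 0 called, with a median of -0.20 (5 of 5 lower and -0.11 with print-tip loess). Those with the smallest p were the lysosomal Cd68 at -0.28 (SE 0.15), the complement gene C1qc at -0.25 (SE 0.13) and the purine receptor P2ry12 at -0.20 (SE 0.12). They were printed in grid rows 4, 3 and 2, and with print-tip loess they read -0.18, -0.11 and -0.09. The other fitted markers of this list, C1qb and Itgam, read -0.02 and 0.03, and -0.14 and -0.11 with print-tip loess. The neutrophil protein gene S100a8 read 0.05 (SE 0.17), opposite in sign to Cxcr2, while Ly6g and Csf3r had a ratio on 3 and 2 arrays. The lymphocyte and dendritic markers fitted were the B cell receptor gene Cd79b at 0.21 (SE 0.15) and the dendritic integrin Itgax at 0.19 (SE 0.17). With print-tip loess Cd79b read 0.14, Itgax 0.38 and S100a8 0.11.

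Markers of the resident tissue were lower in 9 of 11 for neurons (median -0.12), with Camk2a at -0.37 (SE 0.09), Nefm at -0.33 (SE 0.11) and Syt1 at -0.31 (SE 0.18). With print-tip loess 8 of the 11 were lower and the median was -0.03. Camk2a, Nefm and Syt1, printed in grid rows 3, 3 and 1, then read -0.23, -0.16 and -0.13. Oligodendrocyte markers were lower in 3 of 5 (median -0.08), with the myelin gene Mal at 0.35 (SE 0.09), Olig2 at -0.22 (SE 0.09) and Olig1 at -0.20 (SE 0.09). With print-tip loess 2 of 5 were lower (median 0.01), with Mal at 0.16 and Olig2 at -0.09. Of the astrocyte markers 1 of 3 was lower, with Aldh1l1 at -0.20 (SE 0.12), Slc1a3 at 0.06 (SE 0.09) and Sox9 at 0.01 (SE 0.15). With print-tip loess 0 of 3 were lower and Aldh1l1, printed in grid row 1, read 0.01. The vessel and meningeal genes were lower in 3 of 3, with Pdgfrb at -0.38 (SE 0.12), Col1a2 at -0.28 (SE 0.17) and Dcn at -0.04 (SE 0.11). With print-tip loess Pdgfrb read -0.14 and Col1a2 -0.12, both printed in grid row 2. In none of these lists was a gene called at limma's adjusted threshold. At an unadjusted p under 0.05, 6.50% of all fitted probes passed. In the chemokine lists 0 of 7 CC ligands, 0 of 1 other ligand and 0 of 6 receptors did, with 0 of 9 signalling genes and 0 of 4 inducers. Among the markers Camk2a and Nefm passed (2 of 11 for neurons), as did Mal (1 of 5 for oligodendrocytes) and Pdgfrb (1 of 3 vessel and meningeal genes). Differences between the lists were not tested.

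**Figure D5:**
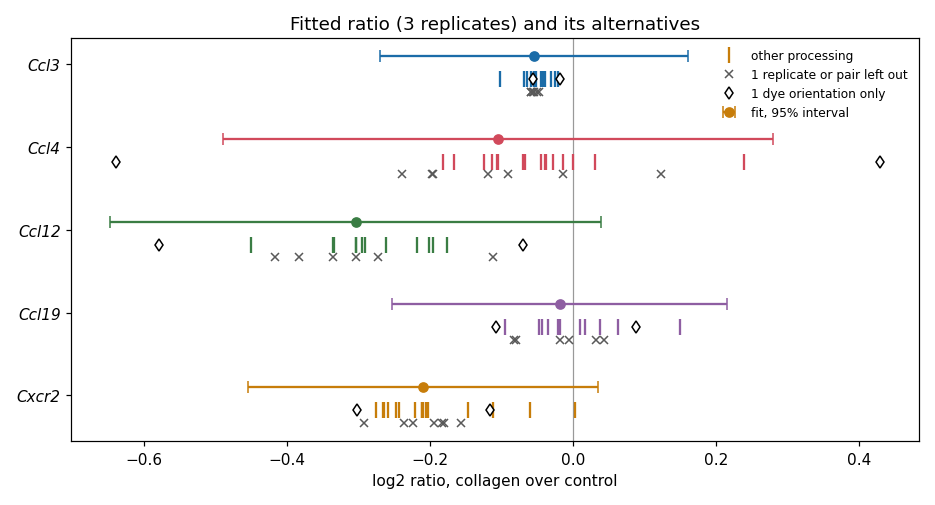
Fitted log2 ratio of collagen over control with its 95% interval (circle and bar, 3 replicates), the values under other processing (ticks), with 1 replicate or pair left out (crosses) and from 1 dye orientation only (diamonds). Every interval holds 0, and the Ccl4 values for the orientations stand at -0.64 and 0.43. All Ccl3 and Ccl12 alternatives with a value stay below 0, and the authors' deposited table gave none for Ccl12.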

How the data were processed

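The data are 2-colour arrays printed in-house, with 3 deposited files per array and 1 deposited table of processed values. A spot intensity with the background taken off, the local background and a flag are given for each channel, per the file headers, which do not define the flags (B, C and S were kept). The files of an array were taken as readings at rising gain, since reading 3 was 1.89 to 2.26 times reading 1 in pairs 1 to 3 and 4.23 to 4.71 times in the other two. Background was higher in channel A in 29 of 30 readings. Scanner, software and genome build: not given in the sources used here.

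Log2 ratios of the deposited intensities went through limma's global loess (span 0.3), reading by reading. They were averaged over readings, turned to collagen over control, and averaged within complete pairs and within replicates. Loess on all 10080 spots was settled on after loess on the listed spots alone had also been run, which is kept as an alternative. Probes were fitted with an intercept (lmFit and eBayes, R 4.3.3, limma 3.58.1, statmod 1.5.0, two-sided), with Benjamini-Hochberg adjustment over all 4125. SE is limma's moderated standard error. The fit was also run on simulated data with known changes. Noise per array was drawn from the spread between replicate means, with no grid row or single-probe dye effect. That run therefore does not measure power in these data. Normexp (offset 50) was an alternative, since the deposited intensities already had background removed.

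The authors' deposited table holds 1 score per spot, a log ratio of unstated base, normalisation and direction, with medians per array of -0.00553 to 0.00457. Spot numbers ran by grid and then by row within a grid, and under this numbering the table correlated at 0.724 to 0.899 with print-tip ratios.

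The platform annotation gave 1 symbol to 9066 probes and several to 12, and did not list 1002 spots. Genes named are the members, the fitted probes of the chemokine lists, up to 3 of each other list by the smallest p, and the 3 probes most correlated with each member. Some probes without a ratio in every replicate, and C1qb and Itgam, are named besides, chosen after their values were seen. The members and lists were chosen with earlier results of these data known, and the comparison of channels, the counts of probes lower in every pair and the promoter patterns were added after the data were seen. Alternatives covered normalisation, background, readings, replicates, the replicate block and dye orientation.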

Additional observations from a re-analysis of the deposited data

Results flagged for a closer look

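In 20 groups of values from the 5 members (pairs, and arrays of 1 dye orientation), 2 held a value far from the others, and chance flags about 1 group in 20. For Ccl12 the array with collagen on Cy3 in pair 3 read -1.28, while the other 3 of that orientation lay between -0.29 and -0.16. For Cxcr2 the array with collagen on Cy3 in pair 4 read -0.0467, while the other 4 lay between -0.39 and -0.32.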

How the results depend on the processing

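No member passed the adjusted threshold for collagen over control under any alternative that gave it a value. Ccl3 (22 alternatives, -0.10 to -0.02) and Ccl12 (20, -0.58 to -0.07) kept their sign in all. Cxcr2 (25, -0.30 to 0.00) kept it in 24, the exception being the authors' deposited table at 0.00223. That table gave no fitted value for Ccl12, as its array with collagen on Cy3 in pair 3 held none. Its other Ccl12 values lay on both sides of 0, from -0.20 to 0.07 on its own log scale. Cxcr2 was -0.11 with median centring, and Ccl12 -0.18 without background correction. Ccl4 was positive in 5 of 25, at 0.123 without replicate 3, 0.429 with collagen on Cy3 alone (-0.64 on Cy5 alone), 0.24 in pairs 4 and 5 alone (no test), 0.0306 with the replicate block and 7.66e-05 with that block and a dye term. Ccl19 was positive in 8 of 19, at 0.0369 with median centring, 0.0624 with normexp, 0.0167 without background correction, 0.149 from reading 1 alone, 0.0875 with collagen on Cy5 alone, 0.0311 without replicate 1, 0.0423 without pair 2 and 0.00931 in pairs 4 and 5 alone (no test). The cause was not tested. Leaving out 1 replicate or pair gave -0.0598 to -0.0481 for Ccl3, -0.240 to 0.123 for Ccl4, -0.417 to -0.113 for Ccl12, -0.0826 to 0.0423 for Ccl19 and -0.293 to -0.157 for Cxcr2.

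The count of called probes went from 0 to 1 with scaling between arrays (Fap) and in the authors' deposited table (Efhc2). It was 0 to 1 when a replicate or pair was left out (the second Xist probe at 5.06 without replicate 2, limma adjusted p = 0.00354), and 28 and 18 with collagen on Cy5 or on Cy3 alone, where the dye effect does not cancel. Those names were chosen after their values were seen. At an unadjusted p under 0.05 the count was 268, against 173 after print-tip loess and 144 after median centring. Detection in both channels fell to 5 arrays for Ccl3, 3 for Ccl12 and 1 for Ccl19 when the local background had to be reached, and to 3 for Ccl19 when all readings were required. Channel B over channel A changed sign for Ccl3 (-0.0208 with print-tip loess, -0.00633 without background correction), Ccl19 (-0.668 with median centring, -0.106 from reading 1 alone) and Cxcr2 (-0.0707 with print-tip loess), and passed for Ccl4 at -0.574 with pairs as units.

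The replicate block changed no call for the members. Its consensus correlation was -0.16. Across probes pairs 1 and 4 correlated at 0.09, pairs 2 and 5 at 0.14, and pairs with unlike numbers at a mean of 0.09. No member was kept in every reading of every array. Ccl12 and Ccl19 were not fitted from reading 3 alone or from the authors' deposited table. Ccl19 was also not fitted from reading 2 alone or from pairs 1 to 3 alone. In channel B the Ccl12 probe was kept in 24 of 30 readings and the Ccl19 probe in 17 of 30. The part of signal strength in the missing fits was not tested.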
